A study of Mus musculus with 12 samples.

Results

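The response of wild-type (WT) spermatogonial stem cells (SSCs) to retinoic acid (RA) was measured as the difference between 2 RNA-seq libraries of WT c-KIT+ pre-meiotic cells and 2 libraries of WT SSCs, 4 of the 12 libraries of the series. These libraries were taken as members because their labels give the wild-type genotype and one of these cell states. The SSCs were cultured germ cells derived from testes of male CBA/C57 mice, labelled 2-month-old, and grown without feeder cells on laminin. The c-KIT+ cells came from such SSC cultures exposed to 100 nM RA and collected 36 h later. No sort on c-KIT protein is described for them, and the sources used here name no vehicle for the SSC libraries. All 4 libraries carry intact Zmym3, the gene that the study deleted in the other SSC and c-KIT+ libraries, and Zmym3 itself was not called in this comparison (40.2 and 37.4 FPKM in WT SSCs, 39.9 and 39.7 in c-KIT+ cells, adjusted p = 0.635). FPKM are read fragments scaled to transcript length and library size, so levels of different genes are compared per length. Whether both libraries of a cell state were grown as separate cultures is not given, and the p-values therefore cover only the spread between libraries, possibly a technical one.

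RA is made from vitamin A (retinol) by dehydrogenases and is destroyed by CYP26 enzymes. In the nucleus it binds RAR receptors, which sit on DNA as pairs with RXR receptors and switch on genes that carry paired copies of a short recognition motif. In the testis, RA drives undifferentiated spermatogonia to become c-KIT+ differentiating spermatogonia and later to enter meiosis, while GDNF and FGF signals from the surrounding somatic cells keep stem cells undifferentiated. Cultured SSCs are held in the undifferentiated state by the same growth factors.

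The cells behaved as their labels say. Stra8, a gatekeeper of meiotic entry, stood at 2.10 and 1.54 FPKM in the 2 WT SSC libraries and at 627 and 608 FPKM in the 2 c-KIT+ libraries. Cyp26a1, the RA-degrading enzyme, went from 0.307 and 0.356 to 18.3 and 16.5 FPKM, and Kit, the receptor that names the cells, from 0.684 and 0.571 to 7.63 and 8.70 FPKM. Zbtb16, a transcription factor of undifferentiated spermatogonia, fell from 83.7 and 78.7 to 15.2 and 15.5 FPKM. For none of these 4 genes, nor for the meiotic cohesin gene Rec8 (4.57 and 3.72 against 41.8 and 36.8 FPKM), did the groups overlap. Lack of overlap was common, with all c-KIT+ values above all SSC values in 48.9% of tested genes and below them in 31%.

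The DNA next to these genes is shown because direct RA targets can carry a direct repeat of a 6-base core spaced by 5 bases. In promoter windows of RefSeq (build GRCm38.p6), 250 bases before to 50 after each start, this motif was searched on both strands as any pair, in the same orientation, of the core AGGTCA, the first variant AGTTCA, the second variant GGGTCA and the third variant GGTTCA. It was present in 32 of 32851 windows (0.0974%), and in 3 of the 8576 tested genes with a window, namely Cyp26a1, Rarb and Blvrb. All 3 were called higher, as were 2138 of those 8576 genes. The motif lies 32 bases before the start of Cyp26a1, 53 before that of Rarb and 19 before that of Blvrb, the gene of biliverdin reductase B. Blvrb rose from 1.53 and 1.34 to 2.63 and 3.23 FPKM (log2 fold change 0.69 ± 0.13, SE, adjusted p = 0.00208). Rarb, the RA receptor that is itself a classical RA target, was listed at 0 in both SSC libraries and stood at 2.22 and 1.98 FPKM in the c-KIT+ libraries (adjusted p = 2.17e-06). The Stra8 window held no such repeat but 2 separate copies of AGGTCA, as at least 2 copies on either strand do in 1.81% of windows. A match is a description of the sequence and not a measured binding site. The 250 bases before each start follow, 5′ to 3′ on the gene's strand, with the cores in capitals (on the Cyp26a1 and Blvrb strands they read as the reverse complement). Cyp26a1 spans chr19:37697558-37697807 on the + strand, Rarb chr14:16575477-16575726 on the - strand, Blvrb chr7:27452168-27452417 on the + strand and Stra8 chr6:34920698-34920947 on the + strand.
Cyp26a1: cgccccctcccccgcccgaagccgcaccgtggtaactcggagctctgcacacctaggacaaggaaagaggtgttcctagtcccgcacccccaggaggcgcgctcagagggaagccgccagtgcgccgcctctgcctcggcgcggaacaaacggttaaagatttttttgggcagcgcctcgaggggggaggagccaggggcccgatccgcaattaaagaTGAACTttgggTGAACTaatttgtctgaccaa
Rarb: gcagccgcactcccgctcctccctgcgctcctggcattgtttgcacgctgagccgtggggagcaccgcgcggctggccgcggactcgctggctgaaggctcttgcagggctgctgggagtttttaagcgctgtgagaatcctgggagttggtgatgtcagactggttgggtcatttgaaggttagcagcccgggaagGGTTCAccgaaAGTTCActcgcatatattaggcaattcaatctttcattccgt
Blvrb: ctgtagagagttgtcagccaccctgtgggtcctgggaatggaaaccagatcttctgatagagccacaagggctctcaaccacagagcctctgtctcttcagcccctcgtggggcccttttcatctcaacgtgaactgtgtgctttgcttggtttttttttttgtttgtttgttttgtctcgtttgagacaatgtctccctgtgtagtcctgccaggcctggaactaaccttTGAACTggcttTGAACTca
Stra8: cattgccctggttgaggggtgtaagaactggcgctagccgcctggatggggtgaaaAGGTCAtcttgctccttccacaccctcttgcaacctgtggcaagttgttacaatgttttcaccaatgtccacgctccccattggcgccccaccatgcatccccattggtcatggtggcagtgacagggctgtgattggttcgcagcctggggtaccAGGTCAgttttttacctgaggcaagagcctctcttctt

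Over all genes the response was broad and mostly small. A gene was tested if 2 or more of the 8 SSC and c-KIT+ libraries of both genotypes reached 1 FPKM. Of the 11981 tested genes, 2982 (24.9%) were higher and 1900 (15.9%) lower in WT c-KIT+ cells at an adjusted p under 0.01 (limma on log2(FPKM + 1)). The log2 fold change, given throughout as c-KIT+ minus SSC with its standard error, had a median of 0.46 among the genes called higher, -0.52 among those called lower and 0.08 over all genes tested. At 2-fold or more, 149 genes (1.24%) were called higher and 297 (2.48%) lower, but this balance depends on the scale: with a pseudocount of 0.1 in place of 1, which shrinks increases from low genes less, the counts were 465 and 466. Replicates differed far less than the groups. The median absolute log2 difference was 0.078 between the SSC libraries and 0.061 between the c-KIT+ libraries, and 0.233 to 0.241 between any SSC and any c-KIT+ library. Leaving out WT SSC replicate 2, c-KIT+ replicate 1 or c-KIT+ replicate 2 reduced the count of genes called higher to 1903, 1808 and 1840. Over these fits and the one without WT SSC replicate 1, the share of all genes called higher lay between 15.2% and 19% and the share called lower between 10.8% and 13.2%, and list counts given below for fits without 1 library are read beside those shares. In a bulk culture, fewer cells of a type and less RNA per cell cannot be told apart.

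**Figure D1:**
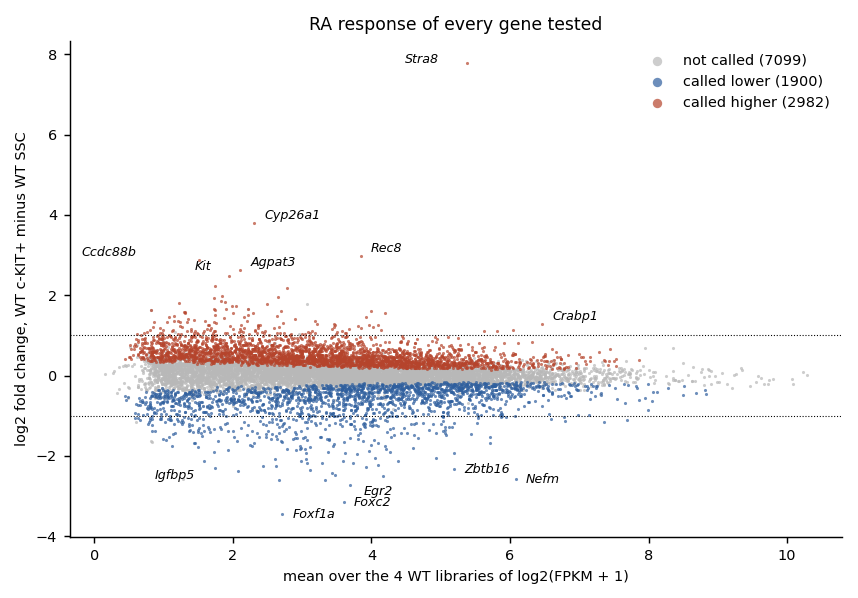
Log2 fold change (WT c-KIT+ minus WT SSC) of each of the 11981 tested genes against its mean log2(FPKM + 1) over the 4 WT libraries, with the 2982 genes called higher in red, the 1900 called lower in blue and dotted lines at 2-fold. Stra8 is the highest point, at 7.78, and Foxf1a the lowest, at -3.45.

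One library stood apart in a single entry. WT SSC replicate 1 listed the microRNA gene Mir3064 at 26720.3 FPKM, and its FPKM sum was 303689.9 against 265806.2 to 271558.0 in the other 3 WT libraries, so 8.909% of its sum was small RNA against 0.095% to 0.207%. Rescaling every library to an equal sum raised the share of called genes that were higher from 61.1% to 71.7%, and median-ratio scaling lowered it to 47.1%, which is why small medians of gene groups near 0 are not given a direction here. The depth of the libraries is unknown, because the FPKM hold no counts.

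The RA pathway itself was reset in both directions. Of 30 genes of retinoid handling and classical RA targets, 21 were tested, 10 rose (47.6%, against 24.9% of all genes) and 6 fell (28.6%, against 15.9%). Among the binding proteins, Crabp1, which carries RA in the cytoplasm, rose from 56.6 and 54.3 to 141 and 132 FPKM and was 1 of the 10 genes that gained most FPKM. Crabp2 stood at 5.29, 5.08, 5.39 and 5.58 FPKM and was not called. Of the metabolic enzymes, Dhrs3, which reduces retinaldehyde back to retinol, rose from 3.51 and 3.95 to 6.21 and 6.53 FPKM. Aldh1a2, an enzyme that makes RA, rose by a log2 fold change of 0.39 ± 0.07, while its relative Aldh1a3 fell by 1.20 on that scale. The receptors were split. Rxrb rose from 15.2 and 13.8 to 20 and 21 FPKM, Rxra fell from 28.1 and 26.8 to 16.5 and 16.2 FPKM and Rxrg fell from 4.24 and 3.69 to 1.56 and 1.78 FPKM. Rarg, the receptor gene known for its role in undifferentiated spermatogonia, fell from 8.97 and 9.22 to 6.95 and 5.71 FPKM. Rara, the RAR with the highest level in these cells, stood at 14.8, 12.2, 15.8 and 13.6 FPKM and was not called.

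Most of the 25 largest increases began at low levels, with 22 of them under 3 FPKM in both SSC libraries. The median SSC level over all tested genes was 10.1 FPKM. Ccdc88b, a coiled-coil protein of the HOOK-related family, went from 0.0307 and 0.0548 to 6.98 and 6.51 FPKM, and it and Cyp26a1 were the genes under 0.5 FPKM in both SSC libraries and at 5 FPKM or more in both c-KIT+ libraries. Agpat3, an acyltransferase of phospholipid synthesis, rose from 0.770 and 0.667 to 10.1 and 9.30 FPKM (log2 fold change 2.64 ± 0.07, adjusted p = 1.97e-07). Several others belong to signalling. Rgl3, an exchange factor for Ral GTPases, rose from 0.613 and 0.490 to 6.54 and 5.90 FPKM. Npr1, the receptor guanylyl cyclase for natriuretic peptides, rose from 1.16 and 1.19 to 7.17 and 5.48 FPKM, and Arhgef26, another guanine nucleotide exchange factor, from 0.379 and 0.449 to 3.16 and 3.31 FPKM. Shank2, known as a scaffold of synapses, rose from 0.929 and 0.802 to 5.85 and 5.57 FPKM. Slx1b, a subunit gene of a structure-specific nuclease that resolves DNA junctions, rose from 0.987 and 0.939 to 6.03 and 5.92 FPKM. Only genes whose groups did not overlap could enter this ranking, so the lack of overlap in these genes was fixed by the choice. Over all tested genes, the share with all c-KIT+ values above all SSC values was 48.9%.

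Few of the largest increases were held or surpassed in spermatocytes. In the WT spermatocyte libraries of sorted tetraploid cells at 5 and 7 months, 13 of the 25 largest increases stood under 1 FPKM in both, and 4 of the 25 reached the c-KIT+ level in both. Low levels there were not particular to increases. The median at 5 and 7 months was 0.218 and 0.215 FPKM over the 149 genes higher by at least 2-fold. It was 0.121 and 0.162 FPKM over the 297 lower ones, and 3.49 and 3.56 FPKM over all tested genes. Ly6k, a surface protein of male germ cells, was 1 of those 4, with 0.969 and 0.664 FPKM in the SSC libraries, 5.61 and 6.55 FPKM in c-KIT+ cells and 170 and 147 FPKM in spermatocytes. Agpat3 and Ccdc88b also went on to higher values there, 51.9 and 62.5 FPKM and 8.89 and 13.8 FPKM. Stra8, in contrast, stood at 1.12 and 0.659 FPKM and Kit at 0.442 and 0.340 FPKM in spermatocytes. Each spermatocyte age has 1 WT library, so these values have no replicate check.

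**Figure D2:**
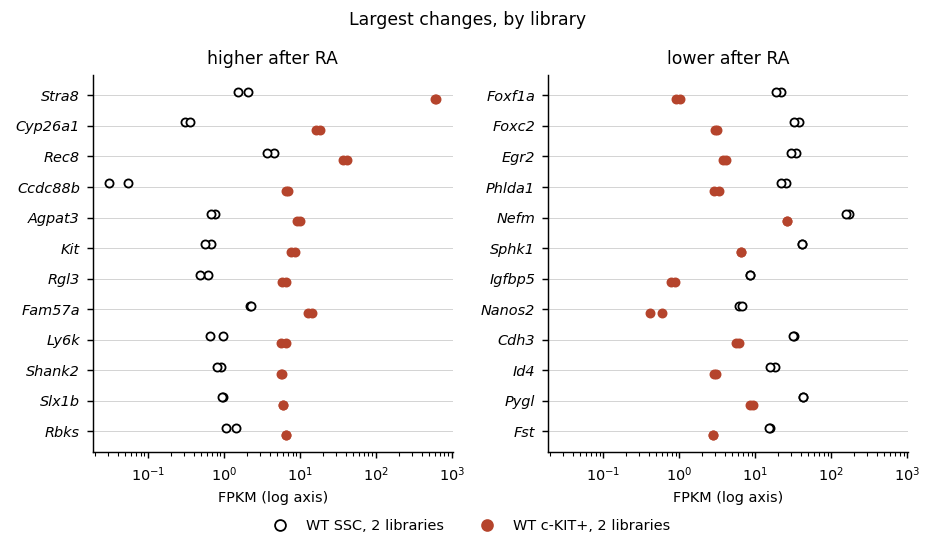
FPKM on a log axis in each of the 2 WT SSC libraries (open circles) and 2 WT c-KIT+ libraries (filled circles) for 12 of the largest increases (left) and 12 of the largest decreases (right). In each gene drawn, both values of one group lie apart from both values of the other, by more than the distance between replicates. Lack of overlap was a condition of the ranking these genes came from.

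The 25 largest decreases included a cytoskeletal subunit, a lipid kinase and secreted modulators of growth factors. On the log2(FPKM + 1) scale a fall of this size can only occur in genes well above 1 FPKM, so the starting levels of these genes follow from the ranking. In both WT spermatocyte libraries 21 of the 25 were under 1 FPKM, as were 13 of the 25 largest increases. Nefm, a neurofilament subunit, fell from 171 and 159 to 26.4 and 26.7 FPKM (log2 fold change -2.59 ± 0.06, adjusted p = 7.4e-08). Sphk1, the kinase that makes the signalling lipid sphingosine 1-phosphate, fell from 42.0 and 41.2 to 6.50 and 6.55 FPKM. Igfbp5, which binds insulin-like growth factors, fell from 8.61 and 8.62 to 0.871 and 0.789 FPKM, and Fst, follistatin, the antagonist of activin, from 15.6 and 15.3 to 2.77 and 2.83 FPKM. Pygl, a glycogen phosphorylase, fell from 42.9 and 42.5 to 8.48 and 9.43 FPKM. Nanos2 and Nanos3, RNA-binding proteins of germ cells, fell from 6.08 and 6.81 to 0.419 and 0.591 FPKM and from 12.7 and 12.1 to 1.69 and 1.95 FPKM. Id4, an inhibitor of bHLH factors known from the most stem-like spermatogonia, fell from 18.4 and 15.6 to 3.04 and 2.85 FPKM and stood at 32.5 and 47.3 FPKM in spermatocytes. Among the abundant genes, Mcam, a cell adhesion molecule, fell from 306 and 298 to 143 and 136 FPKM, and Cst3, the protease inhibitor cystatin C, from 347 and 332 to 189 and 187 FPKM. The 25 largest decreases were ranked only among genes whose groups did not overlap, so their lack of overlap was fixed by the choice. Mcam and Cst3, named for the FPKM they lost, did not overlap either. Over all tested genes, the share with all c-KIT+ values below all SSC values was 31%.

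Transcription factors of the forkhead, SOX and homeobox families were called lower more often than higher. Of 45 forkhead genes, 21 were tested, 14 (66.7%, against 15.9% of all genes) were called lower and 0 higher (1 higher and 17 lower at an unadjusted p under 0.05 in limma). Without WT SSC replicate 1, 19 were tested and 9 called lower, and without any other library 12 or 13. The median log2 fold change of the 21 was -0.55, and between -0.66 and -0.50 under the other scalings. Foxf1a, Foxc2 and Foxl1, which are close neighbours on chromosome 8 (mm9, Foxf1a at 123608374-123610779, Foxc2 at 123640071-123642794 and Foxl1 at 123651585-123654544), all fell. Foxf1a fell from 22.1 and 19.1 to 1.04 and 0.913 FPKM, Foxc2 from 37.8 and 32.7 to 3 and 3.13 FPKM and Foxl1 from 2.40 and 2.46 to 0.0986 and 0.188 FPKM. Mthfsd, a gene between Foxf1a and Foxc2, fell by a smaller amount, a log2 fold change of -0.45 ± 0.11. Foxo1, a forkhead factor needed for SSC maintenance, was not called at a log2 fold change of -0.05, while Foxo3 fell from 45.9 and 42.2 to 25.3 and 24.9 FPKM and Foxo6 from 41.1 and 37.8 to 16.9 and 16.5 FPKM. The summed level of the tested forkhead genes went from 341 and 312.9 to 194 and 196 FPKM.

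Of 19 SOX genes 10 were tested, with a median log2 fold change of -0.56. Of the 10, 6 were lower (60%, against 15.9% of all genes) and 1 higher (10%, against 24.9%). Sox13 fell from 26.7 and 26.2 to 5.84 and 6.25 FPKM, and Sox4, the SOX gene with the highest level here, from 84.1 and 79.2 to 42.2 and 40.6 FPKM. Sox3, an X-linked SOX gene of undifferentiated spermatogonia, was not called, at a log2 fold change of -0.15. Homeobox genes outside the HOX clusters were gathered after their values had been seen. Of 163 such genes 48 were tested, 23 were called lower (47.9%) and 11 higher (22.9%), and 12 of the 23 fell by at least 2-fold. The 11 became 5 without WT SSC replicate 2 or either c-KIT+ replicate, while 18 to 20 were lower in every fit without 1 library. Lhx1, known as a GDNF-induced gene of SSCs, fell from 44.8 and 43.3 to 11.7 and 12.2 FPKM, En1, engrailed, from 30.3 and 27.8 to 6.78 and 7.38 FPKM and Dlx3 from 28.8 and 26.7 to 8.55 and 8.24 FPKM. Pou5f1, the pluripotency factor OCT4, fell from 46.2 and 44.4 to 23.2 and 20.7 FPKM. Some homeobox genes went the other way. Pbx2, a cofactor of HOX proteins, rose from 37.9 and 37.2 to 82.9 and 80.1 FPKM, and Lhx8 and Nobox, known from oocytes, rose from 0.293 and 0.260 to 1.17 and 1.02 FPKM and from 1.54 and 0.996 to 2.77 and 2.05 FPKM. Of 39 genes of the HOX clusters themselves 11 were tested, with 1 higher (Hoxb13) and 1 lower (Hoxc4). Each was 9.09%, against 24.9% and 15.9% of all genes. These counts were not stable, with 1 to 4 higher and 2 or 3 lower under the other scalings. At an unadjusted p under 0.05 in limma 4 were higher and 3 lower. The zinc finger genes with Zfp symbols, a large class, showed 67 higher (21.8%) and 24 lower (7.82%) of 307, a share of increases near that of all genes. Without 1 library 34 to 48 were higher, fewest without c-KIT+ replicate 2, and 12 to 19 lower.

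Transcripts of receptor tyrosine kinases and of families that hold feedback inhibitors of their signalling went both ways. Of 23 tested receptor genes 8 rose and 8 fell (34.8% each, against 24.9% and 15.9% of all genes), and 5 were higher without c-KIT+ replicate 2. Beside Kit, Met, the receptor of hepatocyte growth factor, Fgfr3 (2.37 and 1.92 to 4.45 and 4.15 FPKM) and Flt4, a VEGF receptor (0.349 and 0.329 to 1.59 and 1.69 FPKM), rose. Ret, the signalling receptor of GDNF, fell from 89.8 and 86.3 to 29.5 and 30.5 FPKM (log2 fold change -1.52 ± 0.04). Its co-receptor Gfra1 fell less, from 58.4 and 55.4 to 40.2 and 38.6 FPKM. Fgfr1 fell from 23.2 and 21.5 to 15.4 and 14.7 FPKM and Igf1r from 36.5 and 35.2 to 20.6 and 20.2 FPKM. Of the dual-specificity phosphatase, sprouty and Spred genes, gathered by symbol, 24 of 31 were tested, 9 fell (37.5%) and 4 rose (16.7%). Some of these genes, but not all, restrain MAP kinase signalling and are themselves induced by it. Dusp4 fell from 64.3 and 57.6 to 14.0 and 13.9 FPKM, Dusp6 from 74.8 and 67.2 to 25.6 and 25 FPKM and Spry4 from 38.1 and 34.5 to 14.9 and 15.2 FPKM. Spry2 was not called, at a log2 fold change of -0.03, and Dusp2 rose from 1.24 and 0.937 to 4.53 and 4 FPKM. Etv5, an ETS factor induced by GDNF, fell from 68.4 and 65.4 to 39.6 and 37.7 FPKM, while its relative Etv4 was not called, at a log2 fold change of -0.20 (adjusted p = 0.0155).

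Of 11 tested Wnt ligands and Frizzled receptors 6 fell and 3 rose, with a median log2 fold change of -0.51, and 5 were lower and 1 higher without any 1 of the 4 libraries. The 6 that fell were 54.5% of the tested members, against 15.9% of all genes, and the 3 that rose 27.3%, against 24.9%. Fzd2 fell from 22.2 and 19.3 to 5.81 and 5.87 FPKM and Fzd3 from 7.85 and 7.31 to 2.84 and 2.79 FPKM. In Notch signalling 7 of 25 genes fell (28%) and 6 rose (24%, near the 24.9% of all genes). Notch1 fell from 25.6 and 22.6 to 11.5 and 10.8 FPKM and its feedback target Nrarp from 16.1 and 14.5 to 8.25 and 7.87 FPKM, whereas the secretase gene Psen2 and the sheddase genes Adam10 and Adam17 rose by log2 fold changes of 0.43, 0.36 and 0.31. Notch2 and the ligand gene Jag1 were not called. Socs3, a feedback inhibitor of JAK-STAT signalling, fell from 24.4 and 19.7 to 8.40 and 8.79 FPKM, and Cxcr4, the chemokine receptor of CXCL12, from 9.59 and 9.99 to 4.33 and 4.8 FPKM. Of 8 tested TNF receptor genes 7 were called higher (87.5%, against 24.9% of all genes), in a range of log2 fold changes from 0.26 to 0.91. The other, Tnfrsf1a, was lower at -0.77 (12.5%, against 15.9%). Without c-KIT+ replicate 2 the count of increases was 3, without WT SSC replicate 2 it was 4, and without either of the other libraries 5.

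At the cell surface, adhesion genes went both ways. Of 28 integrin, laminin and linked genes 9 rose (32.1%, against 24.9% of all genes) and 7 fell (25%, against 15.9%), and their summed level was lower, 928.7 and 895 FPKM in SSCs against 766 and 777.4 FPKM. Lama5 and Itgb3 rose, from 11.3 and 10.4 to 26.2 and 24.1 FPKM and from 3.54 and 3.75 to 8.44 and 8.85 FPKM. Itgb5 fell from 22.1 and 22.6 to 7.39 and 7.33 FPKM and Sdc4, a heparan sulfate proteoglycan, from 252 and 237 to 105 and 113 FPKM. Itga6, an integrin used to isolate SSCs, was not called (25.7, 26.1, 25.3 and 27.1 FPKM). Of 19 tetraspanin genes 7 were higher (36.8%) and 8 lower (42.1%), and their summed level was 434.4 and 424.8 FPKM in SSCs against 347.3 and 346.8 FPKM. Cd9, a surface marker of SSCs, fell from 133 and 128 to 66.5 and 66.2 FPKM, while Tspan7 and Tspan9 each rose by a log2 fold change of 0.95. Epithelial-type contacts were lowered in several members, with Cdh3, P-cadherin, going from 32.9 and 31.8 to 5.58 and 6.20 FPKM, Gjb2, a connexin, from 5.55 and 5.24 to 0.710 and 0.690 FPKM and Ocln, occludin, from 17.0 and 17.6 to 6.63 and 6.73 FPKM. Over the whole junction list, however, 8 of 26 genes were higher and 7 lower, and the 8 became 3 without WT SSC replicate 2 and 4 without either c-KIT+ replicate. Of 17 tested protease genes of the ADAM and ADAMTS families 9 rose (52.9%, against 24.9% of all genes) and 2 fell (11.8%, against 15.9%). Adamts9 was among those that fell, from 3.05 and 2.92 to 0.112 and 0.250 FPKM.

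**Figure D3:**
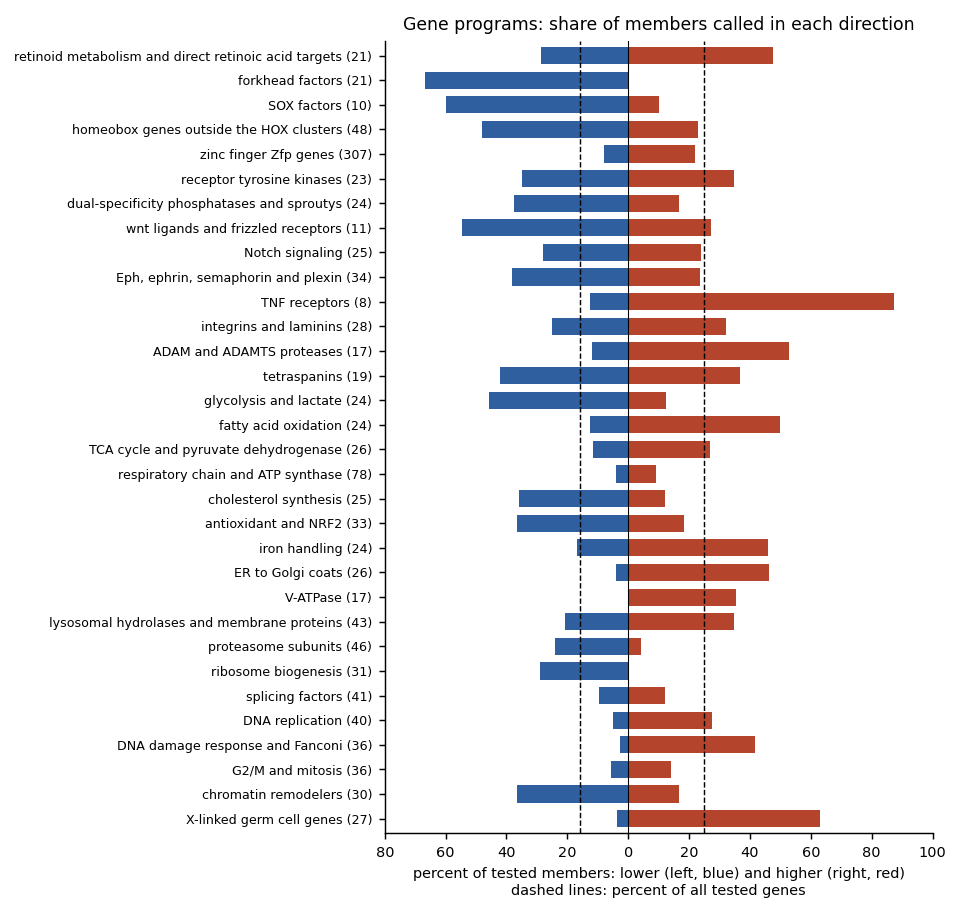
Percent of the tested members of 32 gene lists and families (number tested in brackets) called lower (blue, left) and higher (red, right) in WT c-KIT+ cells, with dashed lines at the values over all genes, 15.9% and 24.9%. Forkhead, SOX, Wnt, glycolysis and antioxidant genes extend past the left line, and iron, fatty acid oxidation, coat, DNA damage and X-linked germ cell genes past the right one.

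Genes of glycolysis were more often lower and genes of fatty acid oxidation more often higher. Of 24 tested genes of glycolysis and lactate handling 11 fell (45.8%, against 15.9% of all genes) and 3 rose (12.5%, against 24.9%), with a median log2 fold change of -0.23, and their summed level went from 968.1 and 956.7 to 740.7 and 705.7 FPKM. The decreases lay at several steps of the pathway. Gpi1 fell from 102 and 106 to 75.3 and 72.2 FPKM, Aldoa from 187 and 185 to 141 and 126 FPKM, Pgam1 from 73.3 and 72.0 to 53 and 51.6 FPKM and Pkm2, pyruvate kinase, from 228 and 225 to 154 and 148 FPKM. Ldha, which turns pyruvate into lactate, fell from 34.3 and 33.9 to 17.2 and 15.5 FPKM, the only member lower by at least 2-fold (log2 fold change -1.02 ± 0.06). Hk1 and Hk2, the hexokinase genes, were not called, at log2 fold changes of -0.06 and -0.02, and Pfkl and Pfkfb4, at the phosphofructokinase step, rose by 0.60 and 0.91. Gapdh, Ldha, Pgk1 and Eno1 have near-identical pseudogene copies that can take reads, so their levels are uncertain.

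In fatty acid oxidation 12 of 24 tested genes rose (50%) and 3 fell (12.5%), with a median log2 fold change of 0.23. Without c-KIT+ replicate 1 the count of increases was 7, without WT SSC replicate 2 or c-KIT+ replicate 2 it was 8, and without WT SSC replicate 1 it was 11. Decr1, a reductase for unsaturated fatty acids, rose from 1.27 and 1.21 to 4.86 and 5.17 FPKM. Etfdh, Etfb and Etfa, which pass electrons from the acyl-CoA dehydrogenases to the respiratory chain, all rose, with log2 fold changes of 0.71, 0.67 and 0.38. The acyl-CoA dehydrogenase genes Acadm, Acadl and Acadvl rose by 0.33, 0.26 and 0.39. Cpt1a, Hadha and Acaa2 were the 3 that fell, Hadha from 53.8 and 53.9 to 36.6 and 36.8 FPKM. Of 26 genes of the TCA cycle 7 rose (26.9%, against 24.9% of all genes) and 3 fell (11.5%, against 15.9%). The respiratory chain and ATP synthase were called less often than all genes. Of their 78 genes 7 rose (8.97%) and 3 fell (3.85%). Cox6b2 and Cox8c, germ cell forms of cytochrome oxidase subunits, were among those 7, with 2.88, 2.68, 9.18 and 5.41 FPKM and 5.93, 7.45, 12.5 and 10.6 FPKM, before 790 and 815 FPKM and 1233 and 782 FPKM in spermatocytes. Cholesterol synthesis was lower in 9 of 25 genes and higher in 3, or in 1 without WT SSC replicate 2 or c-KIT+ replicate 2. Those 9 were 36% of the list, against 15.9% of all genes, and the 3 were 12%, against 24.9%. Among the cholesterol genes, Srebf2, a transcription factor that drives the pathway, fell by a log2 fold change of -0.44 ± 0.06. Phgdh, which commits glucose carbon to serine, fell from 32.8 and 32.2 to 16.1 and 17.2 FPKM, in a list of serine, folate and nucleotide genes of which 8 rose and 5 fell.

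Iron and redox genes formed another contrast. Of 24 tested genes of iron handling 11 rose (45.8%) and 4 fell (16.7%), with a median log2 fold change of 0.28, although their summed level, most of it ferritin, was 1444 and 1374 FPKM in SSCs against 1203 and 1216 FPKM. Without 1 library 2 were lower, and 6 were higher without WT SSC replicate 2 or either c-KIT+ replicate and 8 without WT SSC replicate 1. The increases included Tfrc, the transferrin receptor that brings iron in (28.9 and 28.5 to 41.9 and 45.3 FPKM), Ireb2, an iron-sensing RNA-binding protein (30.4 and 30.0 to 41.6 and 41.8 FPKM), and Ncoa4, which delivers ferritin for breakdown (26.2 and 27.0 to 35.0 and 39.3 FPKM). The decreases were the 2 ferritin subunits, the iron exporter and the enzyme that starts haem synthesis. Fth1 fell from 554 and 512 to 394 and 381 FPKM, Ftl1 from 516 and 507 to 383 and 409 FPKM, Slc40a1, ferroportin, from 7.88 and 7.48 to 5.45 and 5.50 FPKM and Alas1 from 47.0 and 45.2 to 23.9 and 23.5 FPKM. The later haem enzymes Fech, Urod, Cpox, Alad and Ppox rose by log2 fold changes of 0.68, 0.50, 0.35, 0.32 and 0.30. Ferritin genes also have many pseudogene copies.

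Of 33 tested antioxidant genes and targets of NRF2, the regulator of the oxidant response, 12 fell (36.4%) and 6 rose (18.2%), with a median log2 fold change of -0.16. Without WT SSC replicate 2 or c-KIT+ replicate 1, 3 were higher. Gsta4, a glutathione transferase that clears lipid peroxidation products, fell from 90.3 and 94.4 to 29.3 and 27.2 FPKM. Hmox1, haem oxygenase, fell from 84.0 and 76.9 to 43.5 and 38.8 FPKM, Txnrd1, thioredoxin reductase, from 115 and 112 to 66.5 and 67.8 FPKM, Nqo1 from 3.58 and 2.76 to 1.26 and 1.17 FPKM and Nfe2l2, which encodes NRF2, from 33.8 and 32.6 to 27.7 and 25 FPKM. Not all members followed. Prdx5, a peroxiredoxin, rose from 141 and 134 to 226 and 209 FPKM and was among the 10 genes that gained most FPKM, and Gclm, a regulatory subunit of glutathione synthesis, rose from 42.8 and 41.8 to 55.0 and 56.8 FPKM while the catalytic subunit Gclc fell from 75 and 74.8 to 59.4 and 58.9 FPKM. The summed level of the list, 2945 and 2709 FPKM before and 3062 and 2883 FPKM after RA, overlapped between the groups.

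**Figure D4:**
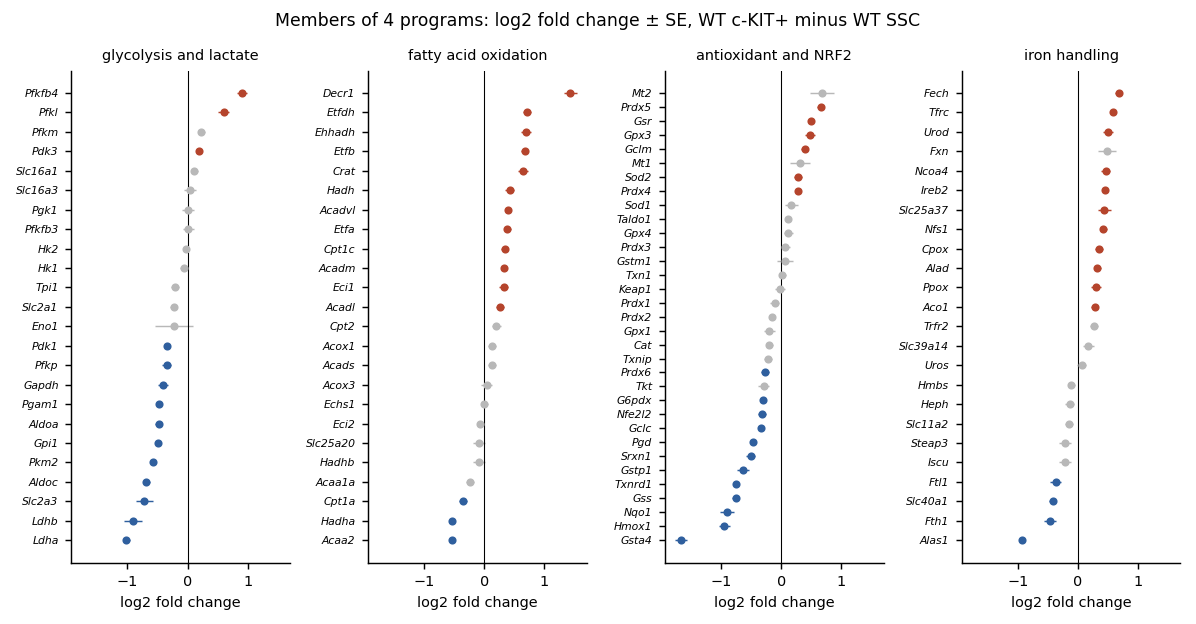
Log2 fold change ± SE (WT c-KIT+ minus WT SSC, 2 libraries a group) of each tested member of 4 lists, with genes called higher in red, called lower in blue and not called in grey. Glycolysis has 11 members lower and 3 higher, fatty acid oxidation 12 higher and 3 lower, the antioxidant list 12 lower and 6 higher, and iron handling 11 higher and 4 lower.

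Among the secretory and degradative systems, coat genes were called higher more often than lower, to a degree that depended on the scaling. Coats carry vesicles between the endoplasmic reticulum and the Golgi. Of 26 tested coat genes 12 rose (46.2%, against 24.9% of all genes) and 1 fell (3.85%, against 15.9%). With median-ratio scaling 9 were higher and 5 lower, where 19.9% of all genes were higher and 22.4% lower. Copz2, a COPI subunit, rose from 3.57 and 3.55 to 11.5 and 10.6 FPKM, and the COPII genes Sec23a and Sec24a by log2 fold changes of 0.61 and 0.52. Without c-KIT+ replicate 2 the count of coat genes called higher was 6, and without any other library 9. Of 17 subunits of the V-ATPase, which acidifies lysosomes, 6 rose (35.3%) and 0 fell (9 higher and 1 lower at an unadjusted p under 0.05 in limma), with 3 higher without c-KIT+ replicate 1 and 4 without any other library. Of 43 lysosomal genes 15 rose (34.9%, against 24.9% of all genes) and 9 fell (20.9%, against 15.9%). Smpd1, acid sphingomyelinase, rose from 4.88 and 4.73 to 11.4 and 11.4 FPKM and Galc, galactosylceramidase, from 1.60 and 2.10 to 4.65 and 4.94 FPKM. Tcfeb, the master regulator of lysosomal genes, fell from 12.6 and 11.3 to 5.44 and 5.33 FPKM. In autophagy, Optn, a cargo receptor, fell from 33.2 and 34.5 to 13.2 and 12.9 FPKM. Of 34 autophagy genes 6 were higher (17.6%) and 7 lower (20.6%). The proteasome had 11 of 46 genes lower (23.9%) and 2 higher, but this count was not stable: 3 were lower without WT SSC replicate 2 or c-KIT+ replicate 2, 6 without either of the other libraries, 5 with equal FPKM sums and 20 with median-ratio scaling. Of those 2, Psma8, the germ cell form of a core subunit, rose from 17.6 and 16.8 to 23.1 and 22.7 FPKM.

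Of 36 genes of G2/M and mitosis 5 rose (13.9%, against 24.9% of all genes) and 2 fell (5.56%, against 15.9%). The 2 were Aurka at a log2 fold change of -0.49 and Cenpf at -0.40. With median-ratio scaling 3 were higher and 9 lower, where 19.9% of all genes were higher and 22.4% lower. Of 40 DNA replication genes 11 rose (27.5%, near the share of all genes) and 2 fell, and without c-KIT+ replicate 1 the increases were 6. Dna2, a replication and repair nuclease, rose from 6.15 and 6.24 to 15.5 and 15.9 FPKM, Gmnn, geminin, which blocks relicensing, from 44.5 and 44.0 to 78.4 and 78.5 FPKM and Prim1, primase, from 35.9 and 39.2 to 60.9 and 63.6 FPKM. Mcm5 and Pcna were not called. In DNA damage signalling and the Fanconi pathway 15 of 36 genes rose (41.7%, against 24.9% of all genes). The increases were small, from Rad54l at a log2 fold change of 0.20 to Wrn at 0.52. Parp1 alone fell (2.78%, against 15.9%), from 289 and 285 to 187 and 186 FPKM. Without WT SSC replicate 1 the count of increases was 8, and without any other library 7. Ribosome biogenesis had 9 of 31 genes lower (29%) and 0 higher (14 lower and 2 higher at an unadjusted p under 0.05 in limma). This count was not stable either, with 5 lower without WT SSC replicate 2, 3 without any other library and 3 lower and 1 higher with equal FPKM sums. Mycn, a driver of growth, fell from 23.6 and 22.0 to 10.9 and 12.4 FPKM. Of 41 splicing factor genes 5 (12.2%) were higher and 4 (9.76%) lower. Among RNA regulators, Igf2bp1 and Igf2bp2, which stabilise bound mRNAs, fell from 60.2 and 56.9 to 33.2 and 32.7 FPKM and from 9.2 and 8.76 to 3.83 and 3.82 FPKM.

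In chromatin, 11 of 30 remodeler genes fell (36.7%) and 5 rose (16.7%), or 3 rose without c-KIT+ replicate 2. Chd4, the ATPase of the NuRD complex, fell from 332 and 328 to 214 and 210 FPKM. Chd7 fell from 14.5 and 13.3 to 7.78 and 7.29 FPKM and Arid2 from 16.3 and 15.6 to 10.1 and 9.47 FPKM. Chd1, linked to transcription elongation, rose from 4.42 and 4.30 to 8.91 and 9.46 FPKM. Of 43 histone methylation genes 8 were higher (18.6%) and 9 lower (20.9%). Over all genes 24.9% were higher and 15.9% lower, and the other list counts of this paragraph as reported are read beside these shares. Among the histone methylation genes Prdm9, which marks the sites of meiotic recombination, rose from 0.439 and 0.432 to 1.52 and 1.83 FPKM. Among stress responses, Pmaip1, a p53 target that promotes apoptosis, fell from 23.5 and 22.6 to 7.58 and 6.64 FPKM, Cdkn1a, p21, from 11 and 9.68 to 5.89 and 5.33 FPKM and Btg2 from 14.7 and 13.8 to 7.79 and 7.44 FPKM. Over the p53 targets as a list, however, 5 of 25 were higher (20%) and 6 lower (24%). Bhlhe41 and Nr1d1, repressors of the circadian clock, fell from 36.8 and 35.0 to 7.10 and 6.70 FPKM and from 16.7 and 16 to 7.91 and 7.06 FPKM, in a list with 8 of 20 genes lower and 5 higher, or 2 higher without WT SSC replicate 2 or c-KIT+ replicate 1 and 5 lower without c-KIT+ replicate 2.

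Genes on the X chromosome rose more often than those on the autosomes. Of 473 tested X-linked genes 184 (38.9%) were called higher and 44 (9.3%) lower, against 24.3% and 16.1% of 11501 autosomal genes, and no autosome reached the X chromosome's share of increases (19.4% on chromosome 15 to 34% on chromosome 14). The median log2 fold change was 0.21 on the X chromosome and 0.07 on the autosomes. Among genes at 5 FPKM or more in both SSC libraries, 35.2% of 261 X-linked and 20.8% of 7733 autosomal genes were higher. Part of the X-linked increase came from germ cell genes, of which 17 of 27 tested rose and 1, Xlr3a, fell, with a median log2 fold change of 0.47. Rhox10, a reproductive homeobox gene, rose from 2.34 and 3.16 to 9.78 and 9.01 FPKM and Rhox9 from 0.916 and 0.627 to 2.93 and 2.96 FPKM. Magea5, of a cancer-testis family, rose from 14.3 and 14.7 to 28.2 and 31.1 FPKM, and Taf7l, a germ cell subunit of the TFIID complex, from 157 and 160 to 206 and 202 FPKM. Without this list, 37.4% of the remaining 446 X-linked genes were higher. Other X-linked increases lay in genes of general function, such as Morc4 (1.30 and 1.35 to 5.90 and 5.92 FPKM), the DNA polymerase subunit gene Pola1 (4.24 and 4.39 to 8.11 and 8.39 FPKM) and Ebp, a sterol isomerase gene (1.04 and 0.882 to 2.34 and 2.73 FPKM). Genes of several X-linked families, such as Rhox, Magea and Xlr, have close copies that can share reads, and neighbours on a chromosome are not independent, so these shares are descriptions without a test.

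**Figure D5:**
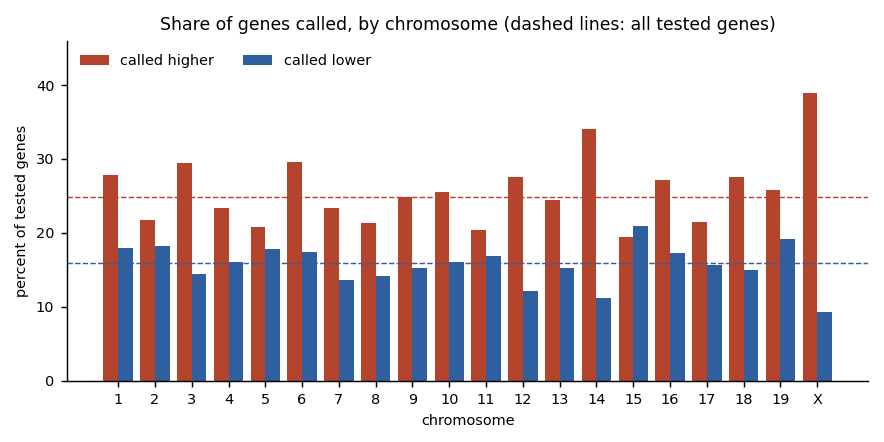
Percent of the tested genes of each chromosome called higher (red) and lower (blue) in WT c-KIT+ cells, with dashed lines at 24.9% and 15.9% for all genes. The X chromosome has the highest red bar, 38.9%, and the lowest blue bar, 9.3%, of the 20 chromosomes drawn. The 7 tested genes of chromosome Y are not drawn.

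Markers of other cell types were present and some moved with RA. The summed FPKM of 26 fibroblast and peritubular genes was 321.2 and 307.7 in SSCs and 285.8 and 291.4 FPKM in c-KIT+ cells. None of the 26 was at 0 in all 4 libraries. Of 22 tested genes 7 fell (31.8%, against 15.9% of all genes) and 2 rose (9.09%, against 24.9%). The collagen genes Col1a1 and Col1a2 were not called, at log2 fold changes of 0.10 and -0.09, while S100a4 fell from 23.1 and 20.8 to 9.45 and 8.39 FPKM. The sum of 23 Sertoli and Leydig cell genes was 150.3 and 140.5 against 133.1 and 126.2 FPKM, with Insl3 and Hsd3b6 at 0 in all 4 libraries and 14 of the 23 under 0.5 FPKM throughout. Most of that sum was Ctsl, a lysosomal protease (94.2, 85.2, 106 and 99.4 FPKM, not called), and Trf, transferrin, which fell from 43.2 and 45.7 to 16.5 and 16.8 FPKM, and Sox9, a defining Sertoli cell factor, fell from 1.59 and 1.16 to 0.539 and 0.432 FPKM. The sum of 16 blood and endothelial genes was 9.856 and 9.748 against 7.407 and 6.496 FPKM, with Emr1 and Hbb-b1 at 0. The sum of 24 genes of late spermatocytes and spermatids was 95.12 and 100.9 against 120.7 and 115.8 FPKM. The defining genes Prm1, Tnp2, Acrv1 and Gapdhs were at 0 in all 4 libraries. Of the 24, 12 were under 0.5 FPKM in all 4 and 14 were below the filter. Of the 10 tested, 5 rose (50%, against 24.9% of all genes) and 0 fell. At an unadjusted p under 0.05 in limma 5 were higher and 1 lower. Clgn, a germ cell chaperone, rose from 5.38 and 6.74 to 16.5 and 15.9 FPKM. The part of these cells in the changes described above was not tested.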

How the data were processed

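RNA-seq of cultured cells was used as deposited. The submitters' processing notes name TopHat2 2.0.6, Cufflinks 2.0.2, Cuffdiff and the mouse build mm9. The authors normalised the values to FPKM before they were deposited. The annotation is not given in the sources used here. Each deposited file holds 23021 entries with an FPKM value. Files were joined by gene symbol, 259 repeated symbols (728 entries) were dropped, and 25 symbols altered to dates stayed in unchanged. Positions are mm9 as deposited.

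Genes that reached 1 FPKM in 2 or more of the 8 SSC and c-KIT+ libraries of both genotypes were fitted as log2(FPKM + 1) by limma 3.58.1 (R 4.3.3). Each group of 2 had its own mean, with a trended variance prior, and p-values were adjusted by the Benjamini-Hochberg method across the 11981 genes. A gene was called at an adjusted p under 0.01. Fold changes are on the log2(FPKM + 1) scale, which understates the change of low genes. Only WT c-KIT+ against WT SSC is reported. The 2 WT spermatocyte libraries served as reference levels, and KO spermatocytes were not used here. On simulated data with the spread of the 11981 genes and 100 genes above 5 FPKM changed by each fold, the same fit called 74% of 1.5-fold and 97% of 2-fold changes and made 3 false calls. The simulated noise was independent between libraries, with no shift of scale and no culture effect. The 3 false calls therefore do not measure the error among the calls reported here.

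Genes were named by a rule: the 5 markers, the 25 largest called changes in each direction, the 10 called genes that gained and the 10 that lost most FPKM, genes that crossed from under 0.5 to at least 5 FPKM, and up to 4 called members of each of 42 lists and 42 symbol families, 1289 of 1309 list members being matched by symbol and 9 by synonym. The 25 largest changes were ranked only among called genes whose groups did not overlap. Other members named were chosen after their values were seen, as were the non-HOX homeobox family, the chromosome shares and the promoter motif. The libraries compared and the lists were chosen with earlier results of these data known. Lists are described by counts and medians, without a test. The alternatives were another pseudocount (0.1), filters (none, 5 FPKM), 4 scalings, no trend, a minimum fold of 1.5, a threshold of 0.05, WT libraries alone, a replicate block and leaving out each WT library. Some named list members are not reported here.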

Additional observations from a re-analysis of the deposited data

How the results depend on the processing

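The 16 alternative settings reversed none of the 359 named genes, and 149 kept their call under each setting that tested them. With the filter at 5 FPKM, 289 of the 359 kept their call and the rest were not tested. A gene that a setting did not test is counted here as keeping its call. Of the 25 largest increases and 25 largest decreases, 47 kept it in this sense, the exceptions being Gm6268, LOC547349 and Gm15772. With limma's minimum fold of 1.5, 135 genes were higher and 306 lower, against 2982 and 1900. With a pseudocount of 0.1, 465 were higher and 466 lower by at least 2-fold, against 149 and 297, and with a filter at 5 FPKM 89 were higher by at least 2-fold. Leaving out 1 WT library, with the lone library of its group assumed to vary like the other groups, gave 1808 to 2266 genes higher, 1289 to 1576 lower, 146 to 169 higher by at least 2-fold and 272 to 326 lower by at least 2-fold, and 42 named genes lost their call in at least 1 such fit. In those fits 3 to 6 TCA cycle genes, 2 to 6 of the respiratory chain, 2 or 3 of G2/M, 1 to 3 splicing factors, 2 or 3 p53 targets and 3 to 5 late spermatocyte markers were higher, and 4 to 7 autophagy genes and 4 or 5 fibroblast markers lower. The share of called genes that were higher was 61.1% as reported, 71.7% with equal FPKM sums, 47.1% with median-ratio scaling and 30.6% with the minimum fold. The median log2 fold change over all genes lay between 0.00 and 0.14 under the scalings, and 49 of 85 lists and families kept the sign of their median under all 4. The median of the X chromosome was above that of the autosomes by 0.07 to 0.19 under the 16 settings. The libraries share replicate numbers but no stated origin. With the replicate number as a block, 2783 genes were higher, 1812 lower, 146 higher and 298 lower by at least 2-fold, and same-numbered SSC and c-KIT+ libraries deviated together with r = 0.169 across genes, which are not independent. Absolute depth is unknown, so counting error per gene could not be given, and genes near 1 FPKM are the least certain.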
